A study of Mus musculus with 6 samples.

Results

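Müller glia are the radial glial cells that span the retina and keep its neurons supplied and its extracellular space in balance. The account below follows 10 genes that serve this housekeeping, namely Rlbp1, Glul, Slc1a3, Apoe, Aqp4, Kcnj10, Car14, Dkk3, Sox9 and Clu. They were chosen by symbol, and all 10 were found among the 54532 genes of the deposited table. The table holds RNA sequencing levels from mouse retinas with oxygen-induced retinopathy, a model in which pups breathe high oxygen, lose retinal capillaries and regrow vessels in room air. All pups entered 75% ± 2% oxygen on postnatal day 7 and were injected into the vitreous on postnatal day 12, with retinas collected on postnatal day 17. The antagomir group (3 libraries) received 1 nmol of the miR-381-3p antagomir, a modified antisense oligonucleotide that blocks that microRNA. The control group (3 libraries) received 1 nmol of a negative control antagomir. Mouse strain is not given in the sources used here, both groups shared the hyperoxia and the injection, and no uninjected or room-air retinas were compared here. Whether each library is its own animal is not stated, so p-values reflect spread between libraries that may be partly technical.

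Glutamate released by neurons enters Müller glia through transporters and is turned into glutamine. Potassium and water leave the tissue through channels on the glial end feet, and retinoid bound in the glia is passed back towards the photoreceptors. During gliosis, the reaction of these cells to injury, some such housekeeping genes can lose expression while filament and acute-phase genes gain it. Most of the 10 genes are also used outside Müller glia. Rlbp1 and Apoe are expressed in pigment epithelium, Apoe in microglia and astrocytes, and Glul, Slc1a3, Aqp4 and Clu in astrocytes too. In whole retina, fewer Müller cells and less RNA per cell cannot be told apart.

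The libraries held 13727596 to 16502352 reads assigned to genes. Levels are given in FPKM, fragments scaled by gene length and a size factor per library, and 17453 genes with a mean of at least 0.5 FPKM were tested. Summed rod markers (10 of 10 found) were at 9611 to 9734 FPKM in antagomir libraries and 9595 to 11064 FPKM in control libraries. Antagomir replicate 1 and control replicates 2 and 3 carried lens transcripts, with summed lens markers of 469, 1037 and 401 FPKM against 4.66 to 10.7 FPKM in the other libraries. Xist, which female cells transcribe, was at 224, 0.041 and 0.057 FPKM in antagomir replicates 1 to 3, against 234, 0.048 and 248 FPKM in control replicates 1 to 3. The 3 libraries with low Xist alone carried transcripts of the Y-linked genes Ddx3y, Eif2s3y, Kdm5d and Uty, so 1 of 3 antagomir and 2 of 3 control libraries were female by these genes. All directions take the table's columns without the control's abbreviation to be the antagomir libraries.

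None of the 10 Müller genes passed the test between antagomir and control retinas. The 95% intervals of their ratios, antagomir over control, lay between 0.631 (Car14, lower bound) and 1.58 (Apoe, upper bound). The test was limma on log2(FPKM + 1), with p adjusted over all 17453 genes and a threshold of 0.05. It called 0% of all genes, and 1082 genes had an unadjusted p under 0.05. Among the 10 genes, 5 were higher and 5 lower, where 50.5% of all genes tested were higher. Their median log2 fold change was -0.0038, against 0.0013 over all genes tested. Without the 3 libraries with lens transcripts, which leaves 2 antagomir libraries and 1 control library, limma called 0 of the 10 and the median was 0.056. With sex as a term of the fit, an alternative added after seeing the data, it also called 0 of the 10 and the median was -0.039. Voom on reads rebuilt from the FPKM also called 0 of the 10, where it called 0.00573% of all genes. At an unadjusted p under 0.05 voom gave 2 of the 10, Apoe and Car14, where it gave 6.38% of all genes. The smallest adjusted p of a member was 0.801 by limma (Car14) and 0.775 by voom (Apoe, Aqp4 and Car14).

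**Figure D1:**
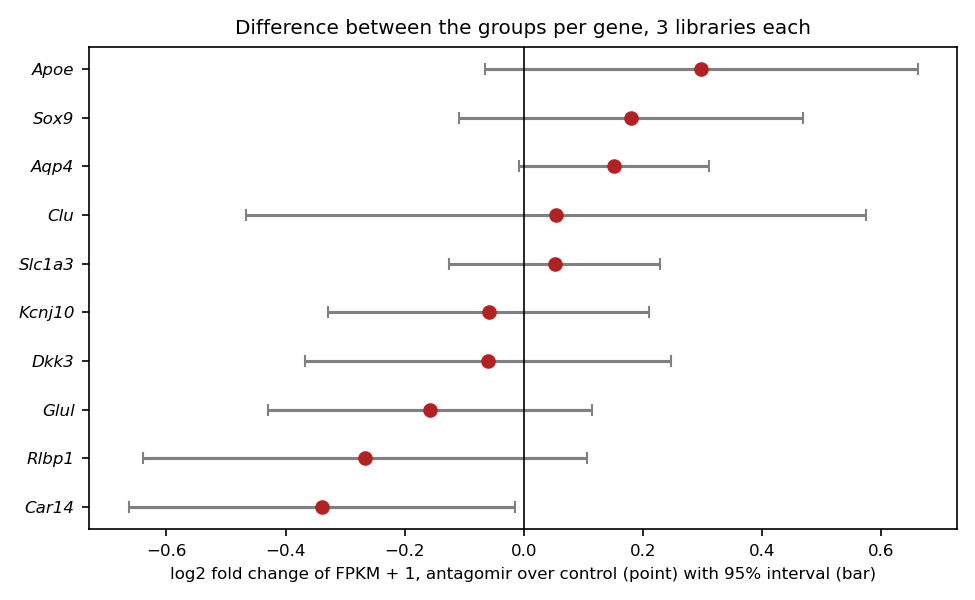
Points are the log2 fold change of FPKM + 1 of each gene, antagomir over control, and bars are the 95% interval by limma (3 libraries a group). The interval of Car14 lies below 0 before adjustment, from -0.66 to -0.014, and those of the other 9 genes cross 0.

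The genes at the ends of this order are Car14 and Rlbp1, which stood lowest, and Apoe, which stood highest. Their promoters are printed because Sox9, a DNA-binding factor with an HMG box, is itself a member. The sequences are RefSeq's for build GRCm38.p6, from 250 bases before to 50 bases after the annotated start, 5′ to 3′ on the gene's strand. They lie at chr7:79386978-79387277 (minus strand) for Rlbp1, chr3:95904636-95904935 (minus strand) for Car14 and chr7:19699139-19699438 (minus strand) for the outermost of 3 listed Apoe starts. Capitals mark ACAAAG or its other-strand form CTTTGT, a core of the kind SOX factors bind.
Rlbp1: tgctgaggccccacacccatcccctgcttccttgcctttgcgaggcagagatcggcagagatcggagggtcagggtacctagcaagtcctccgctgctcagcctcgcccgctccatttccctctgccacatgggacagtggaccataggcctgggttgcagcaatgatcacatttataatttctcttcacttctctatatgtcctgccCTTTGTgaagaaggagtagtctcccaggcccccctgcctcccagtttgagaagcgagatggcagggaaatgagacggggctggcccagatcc
Car14: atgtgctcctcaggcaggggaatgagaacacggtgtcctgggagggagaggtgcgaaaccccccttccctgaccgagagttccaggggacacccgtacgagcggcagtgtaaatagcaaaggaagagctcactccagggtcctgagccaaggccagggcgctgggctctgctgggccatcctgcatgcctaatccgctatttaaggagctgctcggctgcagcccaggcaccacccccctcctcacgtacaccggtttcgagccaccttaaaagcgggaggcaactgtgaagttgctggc
Apoe: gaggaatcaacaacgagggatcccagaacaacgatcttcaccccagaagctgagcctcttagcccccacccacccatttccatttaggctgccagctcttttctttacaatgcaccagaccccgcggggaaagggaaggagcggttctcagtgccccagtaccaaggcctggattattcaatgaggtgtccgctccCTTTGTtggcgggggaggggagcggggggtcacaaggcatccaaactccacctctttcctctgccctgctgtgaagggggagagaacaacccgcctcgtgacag

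Both AACAAT and ACAAAG were searched on both strands, and no match overlapped another. ACAAAG was chosen after the sequences had been seen. Promoters of 6 of the 10 genes were listed, those of Glul, Kcnj10, Slc1a3, Rlbp1, Car14 and Apoe. AACAAT was in 0 of these 6, where 10.7% of 32851 promoters of the same length held it. ACAAAG was in 3 of the 6, those of Rlbp1, Apoe and Kcnj10, where 18.7% of all promoters held it. The members were counted by gene, with any listed start, and the share over all promoters by window. Of the 3 Apoe windows only the outermost held ACAAAG, so the 3 of 6 and the 18.7% are not like for like. In Rlbp1 the match began 42 bases before the start and in Apoe 54 bases before it, both as CTTTGT. The Car14 window, from the gene with the lowest fold change, held neither motif. Nothing about the binding of Sox9 follows from these letters.

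By mean level the genes ran Glul, Apoe, Dkk3, Clu, Rlbp1, Car14, Slc1a3, Aqp4, Kcnj10 and Sox9, a span from 442 to 5.03 FPKM over the 6 libraries. Glul lay above 99.8% of the genes tested and Sox9 above 49.8%. Each gene was above the next in every library, except for the pairs Clu and Rlbp1 and Car14 and Slc1a3. Clu averaged 117 FPKM and Rlbp1 104 FPKM, and their ranges overlapped. Car14 averaged 30.1 FPKM and Slc1a3 21.7 FPKM, and Car14 fell below Slc1a3 in antagomir replicate 2, at 21.2 against 22.4 FPKM. Ranges also overlapped between Glul and Apoe and between Dkk3 and Clu, though the order held within each library.

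**Figure D2:**
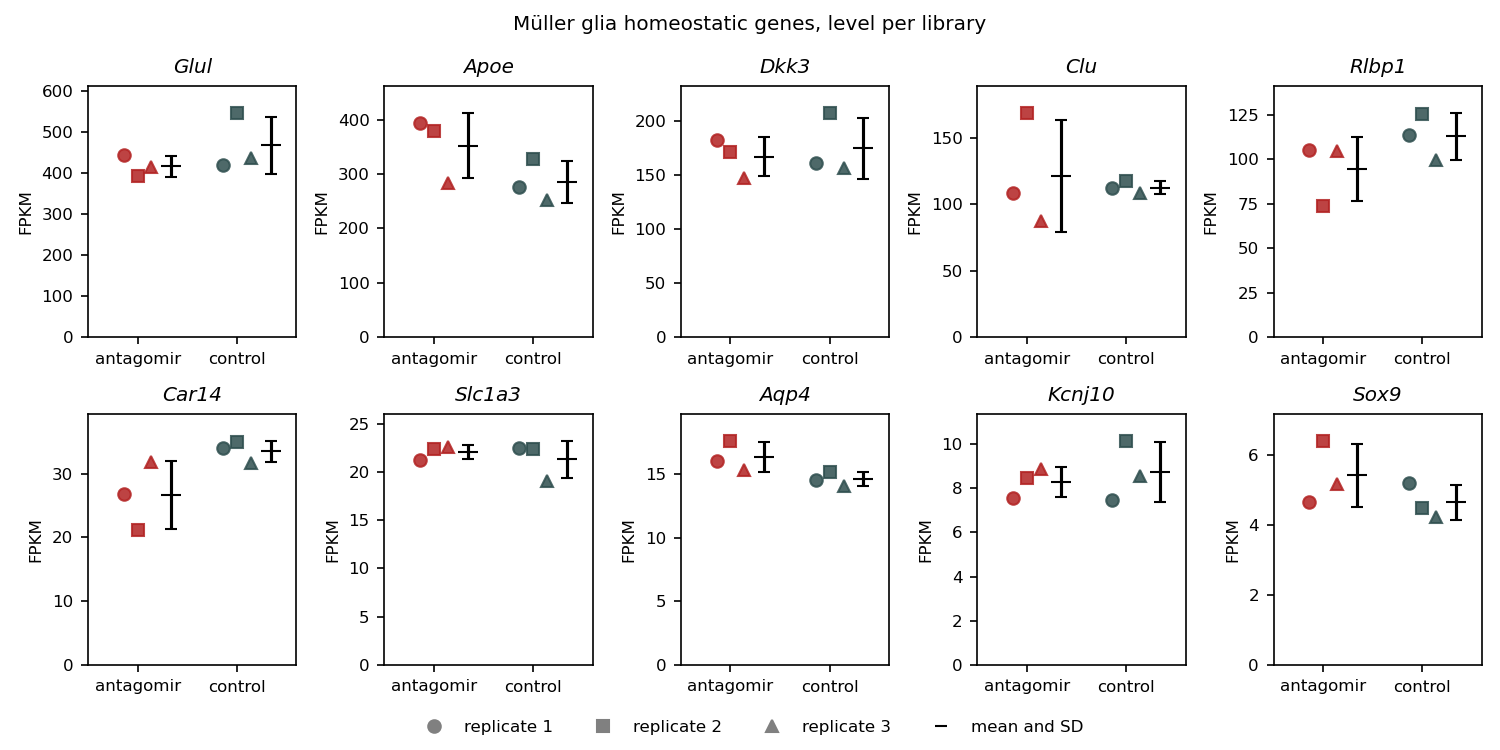
Each panel shows 1 gene in FPKM, with antagomir libraries left and control libraries right. Symbols are libraries, and the black mark and bar are the mean and SD of 3. Only Aqp4 has its 3 antagomir values (15.3 to 17.7) above its 3 control values (14.1 to 15.2).

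Among the genes of glutamate clearance, Slc1a3 encodes the glial glutamate transporter GLAST (ENSMUSG00000005360, chromosome 15, 8634124 to 8710764 in GRCm38, minus strand). It was at 21.2, 22.4 and 22.6 FPKM in antagomir replicates 1 to 3, against 22.5, 22.3 and 19.1 FPKM in control replicates 1 to 3. Control replicate 3 was the lowest library, and the other 5 lay close together. On the log2 scale antagomir minus control came to 0.052 (SE 0.074; limma, adjusted p = 0.931), and the 95% interval spanned ratios of 0.917 to 1.17. Of the 10 genes it varied least, by 1.18 times between its highest and lowest library.

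Glul encodes glutamine synthetase, which makes glutamine from the glutamate taken up (ENSMUSG00000026473, chromosome 1, 153899944 to 153909723, plus strand). It was at 444, 392 and 414 FPKM in antagomir retinas, against 419, 547 and 436 FPKM in control retinas. Control replicate 2 stood above the other 5 libraries, and the groups overlapped. Antagomir over control gave a log2 ratio of -0.16 (SE 0.11), and limma's adjusted p was 0.857. Without control replicate 2 the log2 ratio was -0.040. The 95% interval spanned ratios of 0.742 to 1.08.

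For potassium and water, Aqp4 encodes the water channel of the glial end feet (ENSMUSG00000024411, chromosome 18, 15389394 to 15403684, minus strand). It was at 16.0, 17.7 and 15.3 FPKM in antagomir retinas, against 14.5, 15.2 and 14.1 FPKM in control retinas. Every antagomir library was above every control library, the lowest antagomir value by a narrow margin. This was 1 of the 10 genes, where 6.16% of all genes tested had antagomir libraries above control libraries without overlap. By limma the log2 fold change came to 0.15 (SE 0.067, adjusted p = 0.802), and over 18 alternative fits it ran from 0.098 to 0.19. Its 95% interval spanned ratios of 0.994 to 1.24.

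Kcnj10 encodes the inward rectifier Kir4.1, through which Müller glia pass potassium (ENSMUSG00000044708, chromosome 1, 172341210 to 172374085, plus strand). It was at 7.54, 8.48 and 8.87 FPKM in antagomir retinas, against 7.47, 10.2 and 8.56 FPKM in control retinas. All 3 antagomir libraries lay inside the control range, and control replicate 2 was the highest library. The groups differed by -0.059 log2 units (SE 0.11), at an adjusted p of 0.947 by limma. The difference turned to 0.044 without control replicate 2 and to 0.19 without the 3 libraries with lens transcripts, and was -0.14 with sex as a term.

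Car14 encodes a membrane-bound carbonic anhydrase that handles extracellular acid (ENSMUSG00000038526, chromosome 3, 95897768 to 95904691, minus strand). It was at 26.9, 21.2 and 31.8 FPKM in antagomir retinas, against 34.0, 34.9 and 31.7 FPKM in control retinas. Antagomir replicates 1 and 2 were below every control library, and antagomir replicate 3 was level with control replicate 3. On the log2 scale antagomir minus control came to -0.34 (SE 0.14; limma, adjusted p = 0.801). In the limma fit Car14 was the 1 member lower at an unadjusted p under 0.05, where 2.98% of all genes tested were. The change was -0.19 without antagomir replicate 2.

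Rlbp1 encodes the retinaldehyde-binding protein CRALBP, which carries visual cycle retinoid in Müller glia and pigment epithelium (ENSMUSG00000039194, chromosome 7, 79374870 to 79387048, minus strand). It was at 105, 73.5 and 105 FPKM in antagomir retinas, against 114, 126 and 99.5 FPKM in control retinas. Antagomir replicate 2 was the lowest library, and the other 2 antagomir libraries lay inside the control range. Antagomir over control gave a log2 ratio of -0.27 (SE 0.16), and limma's adjusted p was 0.824. Without antagomir replicate 2 the log2 ratio was -0.097. Summed pigment epithelium markers (10 of 10 found, none at 0 throughout) were at 89.6, 47.9 and 64.5 FPKM in antagomir retinas, against 36.8, 78.7 and 72.4 FPKM in control retinas. Their part in the Rlbp1 level was not tested.

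The secreted lipid carriers and chaperones were Apoe and Clu. Apoe encodes apolipoprotein E, which carries lipid between retinal cells (ENSMUSG00000002985, chromosome 7, 19696109 to 19699188, minus strand). It was at 394, 379.5 and 283 FPKM in antagomir retinas, against 276, 327 and 251 FPKM in control retinas. Antagomir replicates 1 and 2 were above every control library, and antagomir replicate 3 lay inside the control range. By limma the log2 fold change came to 0.30 (SE 0.15, adjusted p = 0.811). It ran from 0.21 (antagomir replicate 1 left out) to 0.45 (antagomir replicate 3 left out), and its 95% interval spanned ratios of 0.956 to 1.58.

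Microglia also make Apoe. Summed microglia and macrophage markers (13 of 13 found, none at 0 throughout) were at 80.0, 176 and 131 FPKM in antagomir retinas, against 91.4, 71.7 and 88.2 FPKM in control retinas. These sums were above every control library in antagomir replicates 2 and 3, and Apoe was above every control library in antagomir replicates 1 and 2. The part of microglia in the Apoe difference was not tested.

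Clu encodes clusterin, an extracellular chaperone that also circulates with lipoproteins (ENSMUSG00000022037, chromosome 14, 65968483 to 65981547, plus strand). It was at 108, 169 and 87.3 FPKM in antagomir retinas, against 112, 117 and 108 FPKM in control retinas. The antagomir group held both the highest and the lowest library, while the control libraries lay close together. Its coefficient of variation was 34.8% in antagomir retinas and 4.06% in control retinas, where counting reads alone gives 1.27% and 1.33%. The groups differed by 0.054 log2 units (SE 0.22), at an adjusted p of 0.975 by limma. The difference turned to -0.21 without antagomir replicate 2 and was 0.26 without antagomir replicate 3.

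Dkk3 encodes a secreted protein of the Dickkopf family of Wnt modulators (ENSMUSG00000030772, chromosome 7, 112116017 to 112159057, minus strand). It was at 183, 171 and 147 FPKM in antagomir retinas, against 161, 207 and 156 FPKM in control retinas. The extremes were antagomir replicate 3 and control replicate 2, with the other libraries mixed between them. On the log2 scale antagomir minus control came to -0.060 (SE 0.13; limma, adjusted p = 0.954). The sign turned without control replicate 2, at 0.069.

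Sox9 encodes a transcription factor of glial fate that mature Müller glia keep (ENSMUSG00000000567, chromosome 11, 112782224 to 112787760, plus strand). It was at 4.66, 6.40 and 5.18 FPKM in antagomir retinas, against 5.20, 4.49 and 4.23 FPKM in control retinas. Antagomir replicate 2 stood highest and the other libraries of both groups were interleaved. Antagomir over control gave a log2 ratio of 0.18 (SE 0.12), and limma's adjusted p was 0.852. Without antagomir replicate 2 the log2 ratio was 0.071. This gene had the fewest reads, 280 to 431 in antagomir libraries and 242 to 320 in control libraries.

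The genes did not move as a block from library to library. In antagomir replicate 2, Clu, Sox9 and Aqp4 were at their highest of the 6 libraries and Rlbp1, Car14 and Glul at their lowest. Relative to the mean of the 6 libraries on the log2 scale, Clu was at 0.55, Sox9 at 0.31 and Aqp4 at 0.18 there, while Rlbp1 was at -0.47, Car14 at -0.47 and Glul at -0.16. Control replicate 2 was the highest library for 5 genes, Glul (0.31), Rlbp1 (0.29), Dkk3 (0.29), Kcnj10 (0.24) and Car14 (0.23). Control replicate 3 was the lowest library for 4 genes, Apoe, Slc1a3, Aqp4 and Sox9. The share of all genes tested that were highest or lowest in each library was not counted. With deviations of both signs, the mean over the 10 genes in antagomir replicate 2 was 0.026. The mean deviations were 0.0058, 0.026 and -0.054 in antagomir replicates 1 to 3, against -0.016, 0.13 and -0.096 in control replicates 1 to 3.

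**Figure D3:**
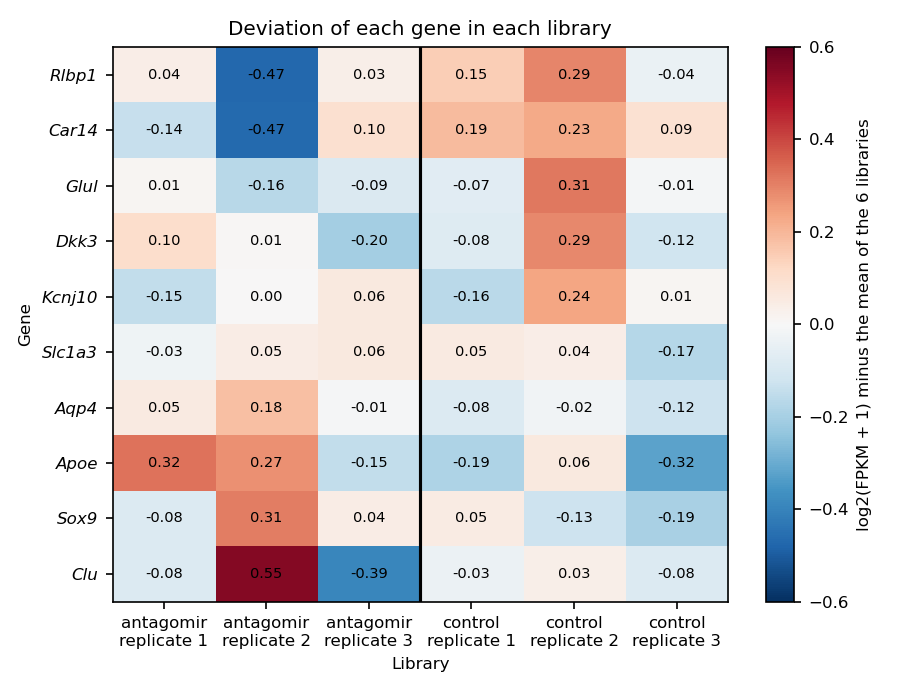
Colour and number give each gene's log2(FPKM + 1) minus its mean over the 6 libraries, with antagomir libraries left of the line. Antagomir replicate 2 runs from -0.47 (Rlbp1, Car14) to 0.55 (Clu), and control replicate 2 is the highest library for 5 genes (0.23 to 0.31).

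Antagomir replicate 2 was also the library with the strongest gliosis transcripts. Of 14 tested reactive gliosis genes, 12 were highest there and the other 2 in control replicate 1, and the share over all genes tested was not counted. Lcn2, which encodes the acute-phase protein lipocalin-2, was at 4.01, 85.4 and 12.2 FPKM in antagomir retinas, against 4.10, 2.81 and 3.39 FPKM in control retinas. Serpina3n, a protease inhibitor gene of reactive glia, was at 3.93, 72.8 and 4.05 FPKM in antagomir retinas, against 14.2, 4.08 and 7.29 FPKM in control retinas. Both genes stood far above the rest in a single antagomir library.

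Edn2, which encodes the peptide endothelin-2 and is known from stressed photoreceptors, was at 13.7, 83.1 and 4.89 FPKM in antagomir retinas, against 20.7, 5.09 and 15.3 FPKM in control retinas. Gfap, the filament gene of reactive glia, was at 12.4, 38.3 and 13.0 FPKM in antagomir retinas, against 35.1, 17.2 and 24.7 FPKM in control retinas. For Gfap the remaining antagomir libraries were below every control library. Of the 14 gliosis genes 0 passed the test, 11 were higher and 3 lower. Their median log2 fold change was 0.40, and -0.11 without antagomir replicate 2. This median was 0.067 without the libraries with lens transcripts, 0.10 with a lens score as a term and 0.11 without control replicate 2. It was 0.76 without antagomir replicate 3 or without control replicate 1. S100a6, a calcium-binding protein gene that was picked after its values were seen, was the 1 of 14 gliosis genes higher without overlap, where 6.16% of all genes tested were. It was at 9.86, 27.9 and 10.3 FPKM in antagomir retinas, against 8.26, 6.02 and 7.19 FPKM in control retinas. The part of this reaction in the low Rlbp1 and Car14 and the high Clu of that library was not tested.

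**Figure D4:**
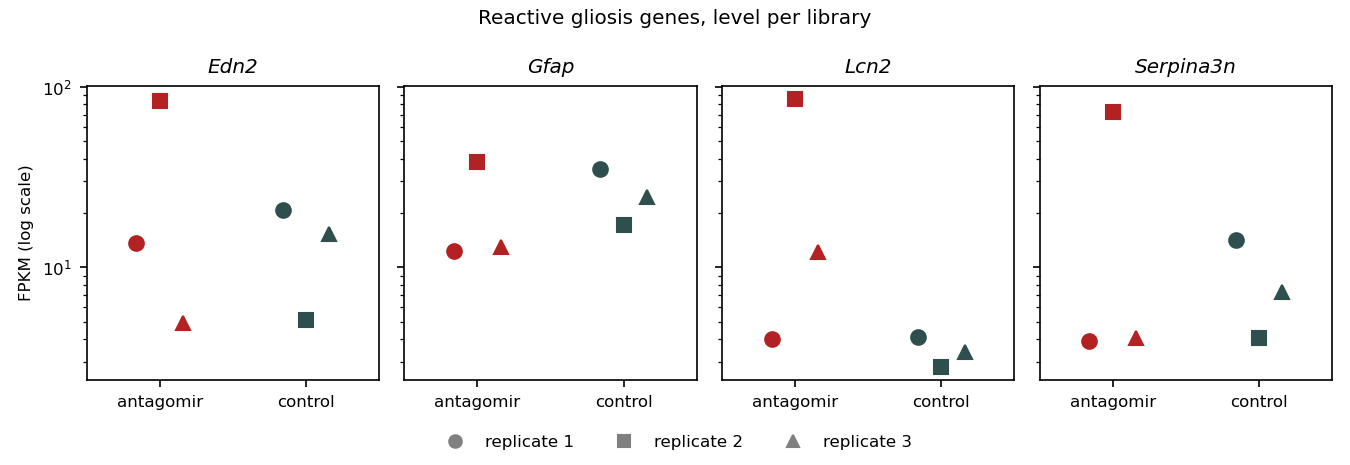
FPKM of 4 reactive gliosis genes per library on a log axis, antagomir libraries left and control libraries right, with 1 symbol per replicate number. Antagomir replicate 2 (red square) is the highest library in each panel, from 38.3 (Gfap) to 85.4 (Lcn2).

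The genes that work beside these 10 were followed in 7 further lists, and none of their tested genes passed the test. Of the potassium, water and acid-base partners, 14 of 17 passed the expression filter, 6 were higher, 8 were lower and the median log2 fold change was -0.067. Bsg, a chaperone of lactate transporters, was at 443 ± 13.5 FPKM in antagomir retinas and 438 ± 59.8 FPKM in control retinas (SD, n = 3 each). Atp1b2, a sodium pump subunit gene, was at 366 ± 39.9 FPKM in antagomir retinas and 347 ± 13.4 FPKM in control retinas.

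In the list of glutamate, GABA and amino acid recycling, 12 of 13 genes were tested, 6 were higher and 6 lower, and the median was -0.0047. None of the 12 had an unadjusted p under 0.05 by limma. Slc38a3, which encodes a glutamine transporter, was at 101 ± 9.07 FPKM in antagomir retinas and 98.8 ± 6.31 FPKM in control retinas.

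All 14 genes of apolipoprotein and lipid handling were tested; 2 were higher, 12 were lower and the median was -0.046. Lcat, which encodes the enzyme that esterifies cholesterol on lipoproteins and was picked after its values were seen, was at 1.69, 2.11 and 1.45 FPKM in antagomir retinas, against 2.65, 2.55 and 2.48 FPKM in control retinas. Every antagomir library was below every control library, as for 5.87% of all genes tested. On the log2 scale antagomir minus control came to -0.38 (SE 0.11; limma, adjusted p = 0.801). Vldlr, a lipoprotein receptor gene, was at 38.1 ± 1.23 FPKM in antagomir retinas and 40.1 ± 1.16 FPKM in control retinas. Srebf1, a regulator of lipid synthesis, was at 28.5 ± 1.11 FPKM in antagomir retinas and 29.8 ± 2.03 FPKM in control retinas.

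Of 9 retinoid genes, all tested, 7 were higher and 2 lower, with a median of 0.032, and 2 were higher at an unadjusted p under 0.05, where 3.22% of all genes tested were. The median was 0.19 without antagomir replicate 2, 0.14 without antagomir replicate 3 or control replicate 3, and 0.17 with a lens score as a term. The genes with the low p were Dhrs3, a retinaldehyde reductase gene, and Crabp1, which encodes a cytosolic retinoic acid binding protein and was named after its values were seen. Crabp1 was at 19.4, 18.3 and 26.8 FPKM in antagomir retinas, against 16.3, 14.2 and 12.8 FPKM in control retinas. Its antagomir libraries lay above all control libraries, as for 6.16% of all genes tested, with antagomir replicate 3 the highest. Antagomir over control gave a log2 ratio of 0.53 (SE 0.15), and limma's adjusted p was 0.801. Dhrs3 was at 36.3 ± 2.60 FPKM in antagomir retinas and 32.1 ± 1.38 FPKM in control retinas, also without overlap. Rdh10, a retinol dehydrogenase gene, was at 21.0 ± 4.35 FPKM in antagomir retinas and 16.4 ± 1.93 FPKM in control retinas. Rlbp1, the member of this pathway, was on average lower.

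Of 16 transcription factor and Notch genes of glial fate, 10 were higher and 6 lower, with a median of 0.13. Rax, a retinal progenitor and Müller glia homeobox gene, was at 56.8, 56.8 and 50.8 FPKM in antagomir retinas, against 47.1, 49.3 and 41.5 FPKM in control retinas. The antagomir libraries were all above the control libraries, as for 6.16% of all genes tested. By limma the log2 fold change came to 0.25 (SE 0.081, adjusted p = 0.801). Among secreted Wnt modulators 5 of 9 were tested, 2 were higher and 3 lower, and the median was -0.040. This median turned sign without antagomir replicate 3 (0.028), control replicate 2 (0.0053) or control replicate 3 (0.0085), and with sex as a term (0.011). It was 0.13 with a minimum of 2 FPKM, where only 2 genes of the list were tested. Despite its name, the list also held the Dickkopf receptor genes Kremen1 and Kremen2. They were at 7.40 ± 1.46 and 4.84 ± 0.557 FPKM in antagomir retinas, and at 6.23 ± 0.544 and 4.61 ± 0.188 FPKM in control retinas.

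Among 13 other Müller glia markers, 7 were higher and 6 lower, with a median of 1.6e-04. Acsl3, an acyl-CoA synthetase gene, was at 97.6 ± 12.1 FPKM in antagomir retinas and 97.3 ± 8.07 FPKM in control retinas. Gnai2, a G protein subunit gene, was at 44.6, 44.8 and 42.9 FPKM in antagomir retinas, against 52.9, 48.6 and 47.3 FPKM in control retinas. Its antagomir libraries were all below the control libraries, as for 5.87% of all genes tested. The groups differed by -0.17 log2 units (SE 0.058), at an adjusted p of 0.801 by limma. Crym, which encodes mu-crystallin, a thyroid hormone binding protein, was named after its values were seen. It was at 28.8, 66.7 and 44.0 FPKM in antagomir retinas, against 30.5, 25.2 and 25.2 FPKM in control retinas, again highest in antagomir replicate 2.

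**Figure D5:**
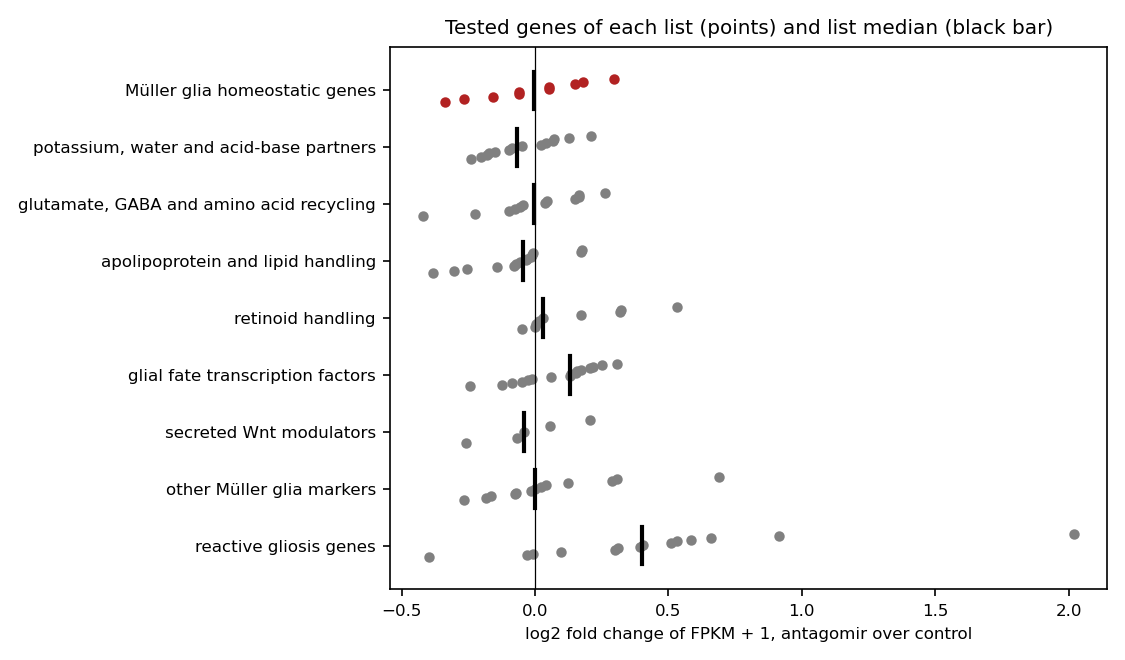
Points are tested genes of each list and black bars are list medians, on the scale of log2 fold change of FPKM + 1, antagomir over control. The Müller glia homeostatic genes (red, top) centre on -0.0038 between -0.34 and 0.30, and the gliosis genes reach 2.02 (Lcn2).

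Astrocytes share Glul, Slc1a3, Aqp4, Apoe and Clu with Müller glia. Summed astrocyte markers (7 of 7 found, none at 0 throughout) were at 102, 87.8 and 89.1 FPKM in antagomir retinas, against 109.9, 126 and 121 FPKM in control retinas. These sums did not overlap between the groups. Of the shared genes, Glul was also lower on average in antagomir retinas, while Slc1a3, Aqp4, Apoe and Clu were higher. In each library most of the astrocyte sum was Aldoc, which is not specific to astrocytes in retina. The part of astrocytes in the levels of the shared genes was not tested. Summed pericyte markers (19.7 to 27.3 FPKM in antagomir retinas, 27.8 to 41.5 FPKM in control retinas) and red blood cell markers (21.4 to 61.2 FPKM in antagomir retinas, 66.4 to 220.1 FPKM in control retinas) did not overlap either. In all, 14 marker lists were summed, and the sums of the remaining lists overlapped between the groups. Of all single genes tested, 5.87% were lower and 6.16% higher in antagomir libraries without overlap. Summed levels of the 10 Müller genes were at 1310, 1261 and 1121 FPKM in antagomir retinas, against 1165, 1412 and 1129 FPKM in control retinas. That sum overlapped between the groups, and Glul and Apoe made up most of it.

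The genes most like the mean deviation of the 10 over the 6 libraries, among protein-coding genes with a mean of at least 5 FPKM, were Ltbp3, Gpr152, Gosr1, Ran and Cops7b. Likeness is described by Pearson's r between log2 values and that mean deviation, which ran from 0.989 for Ltbp3 to 0.954 for Cops7b. These 5 were picked as the highest values, and the 6 points share library and scaling, so no test is attached. Ltbp3, which encodes a TGF-beta binding protein of the matrix, was at 9.78, 9.58 and 8.22 FPKM in antagomir retinas, against 9.22, 12.1 and 7.72 FPKM in control retinas. Like Glul and Dkk3, it was highest in control replicate 2.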

How the data were processed

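RNA was sequenced from 6 mouse retina libraries, grouped by sample title. TRNzol served for RNA extraction and a SMARTER mRNA-Seq kit for the libraries, per the labels' protocols. The submitters' processing notes name the builds GRCm38 and mm10. Aligner, counting tool and strand setting were not named there, so levels of overlapping or near-identical genes are uncertain. The authors deposited FPKM values for 54532 genes with gene lengths, per the file headers. Control columns carry the control's abbreviation and number. By elimination, the remaining 3 columns were read as the antagomir libraries.

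Multiplying FPKM by gene length showed steps of whole reads in 100% of values (within 0.01 reads), which gave each library's reads. They summed to 14377164, 16105286 and 16502352 in antagomir replicates 1 to 3 and to 15200313, 15028877 and 13727596 in control replicates 1 to 3. The library totals implied by the FPKM equalled median-of-ratios size factors times a constant. Library pairs differed beyond counting noise (chi-square per gene 4.79 to 15.0), and each library was kept as its own replicate. These values cannot show that each library is its own animal, since libraries made separately from shared tissue can also differ beyond counting noise. The 3 libraries with Xist were the most alike pairs (4.79, 6.37 and 7.02).

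Genes with a mean of at least 0.5 FPKM (17453) entered a two-sided limma test (version 3.58.1, R 4.3.3) of log2(FPKM + 1) with a mean-variance trend and no covariate. P-values were adjusted by Benjamini-Hochberg across those genes, with calls under 0.05. Fold changes on this scale understate those of low genes. The members, lists and tests were chosen with earlier results of these data known. Genes named are the 10 members, in each further list the 2 with the highest mean and any called, Lcn2 and Serpina3n, and the 5 of highest likeness (mean of at least 5 FPKM). Some genes under this rule are not reported here. Other names are marked in the text as chosen after their values were seen. Target sites of miR-381-3p were not analysed here.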

Additional observations from a re-analysis of the deposited data

How the results depend on the processing

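None of the 10 Müller genes passed the test in any of 19 alternatives. These were a pseudocount of 0.1, no filter, a minimum of 2 FPKM, TPM, quantile normalization, no trend, voom with TMM or size factors, a replicate block, a lens score as a term, an adjusted p of 0.1, no libraries with lens transcripts, a term for sex (chosen after seeing the data), and each library left out. Their median log2 fold change ran from -0.077 without antagomir replicate 2 to 0.077 without control replicate 2. Rlbp1, Glul, Apoe, Aqp4, Car14 and Sox9 kept their direction throughout. Dkk3 turned with the lens score as a term (0.024) and without antagomir replicate 3 (0.026) or control replicate 2 (0.069). Kcnj10 turned without the libraries with lens transcripts (0.19), antagomir replicate 1 (6.0e-04) or control replicate 2 (0.044). Slc1a3 turned without the libraries with lens transcripts (-0.0024). With 1 library left out in turn, values ran from -0.022 to 0.091 for Slc1a3, -0.15 to 0.044 for Kcnj10, -0.13 to 0.069 for Dkk3 and -0.21 (without antagomir replicate 2) to 0.26 for Clu; Slc1a3 turned without control replicate 3. The cause of these turns was not tested. The medians of the retinoid and Wnt modulator lists moved with sex as a term, to 0.16 and 0.011. Over all genes, limma called 0, and 0 to 2 when 1 library was left out. It called 5 without the trend, 2 without the libraries with lens transcripts (2 against 1 library) and 3 at an adjusted p of 0.1, and voom called 1 with either scaling. With sex as a term 0 genes were called. With the replicate block 0 genes were called (856 at an unadjusted p under 0.05). Deviations of same-numbered libraries correlated at -0.19, -0.10 and -0.14, and those of differently numbered libraries at -0.066 to 0.19. The sample titles state no pairing. These values cannot decide whether one existed, since the libraries also differed in sex and lens transcripts. Depth limits Sox9 most, with a counting error of 5.37% in antagomir and 5.99% in control libraries.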
